A study of Mus musculus with 6 samples.

Results

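The protein kinase C family was followed through 8 of its genes, Prkca, Prkcb, Prkcd, Prkce, Prkch, Prkcq, Prkci and Prkcz, in the deep cerebellar nuclei of mice trained in eyeblink conditioning. Members were all probe sets whose platform annotation, brought up to current symbols, named a single gene and one of these 8. This gave 24 of the 36701 probe sets that were not array controls, 14 on array design A, 7 on design B and 3 on design C. A probe set is a group of short probes on the array that reads 1 transcript or part of it.

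Tissue came from male C57BL/6 mice aged 11 to 18 weeks with wires implanted in the left eyelid, and 10 to 15 nuclei of that side, centred on the anterior interpositus and taken by syringe needle, were pooled for each group. The paired group received for 7 days a tone of 352 ms whose last 100 ms overlapped a shock next to the eye, starting 252 ms after the tone. The unpaired group received the same tone and shock apart, in pseudorandom order, for 7 days. For both groups recovery lasted 3 days and the sampling window was 10 to 30 min. Surgery, housing, strain, sex and age were shared, and no untrained group was analysed here. Each pool was measured on 1 array of each design, 6 arrays in all, so no value has a replicate, an SD over mice or a p-value.

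Protein kinase C enzymes are serine and threonine kinases that act when receptors coupled to phospholipase C raise diacylglycerol and calcium. The conventional isoforms, here Prkca and Prkcb, need both messengers. A calcium-independent class, Prkcd, Prkce, Prkch and Prkcq, responds to diacylglycerol alone, and the atypical isoforms, Prkci and Prkcz, need neither and work in cell polarity complexes. In the cerebellum the family is best known for its part in long-term depression of the synapses from parallel fibres onto Purkinje cells, whose axons end in the deep nuclei.

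Prkcd was higher in the paired pool on each of its 3 probe sets, and no other member gene had a probe set 1.5-fold apart. Signals are given as deposited, on the log2 scale. A log2 ratio is paired minus unpaired after the arrays of a design were scaled to each other, and values under the design's 25th percentile were set to it. Of the 24 probe sets, 17 had a mean signal at or above the median of their design and are called kept. Every gene had at least 1 kept probe set. Of the 17, 1 lay past 1.5-fold (a log2 ratio of 0.585), or 5.88%, against 0.681% of all 18351 kept probe sets, 0.349% higher and 0.332% lower. Each kept probe set had its log2 ratio placed among all those kept on its design. At the filter, a Prkca probe set on design B lay just inside, with a mean log2 signal of 4.35 against a limit of 4.32. A Prkcz probe set on design A lay just outside, with 4.74 against 4.82.

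**Figure D1:**
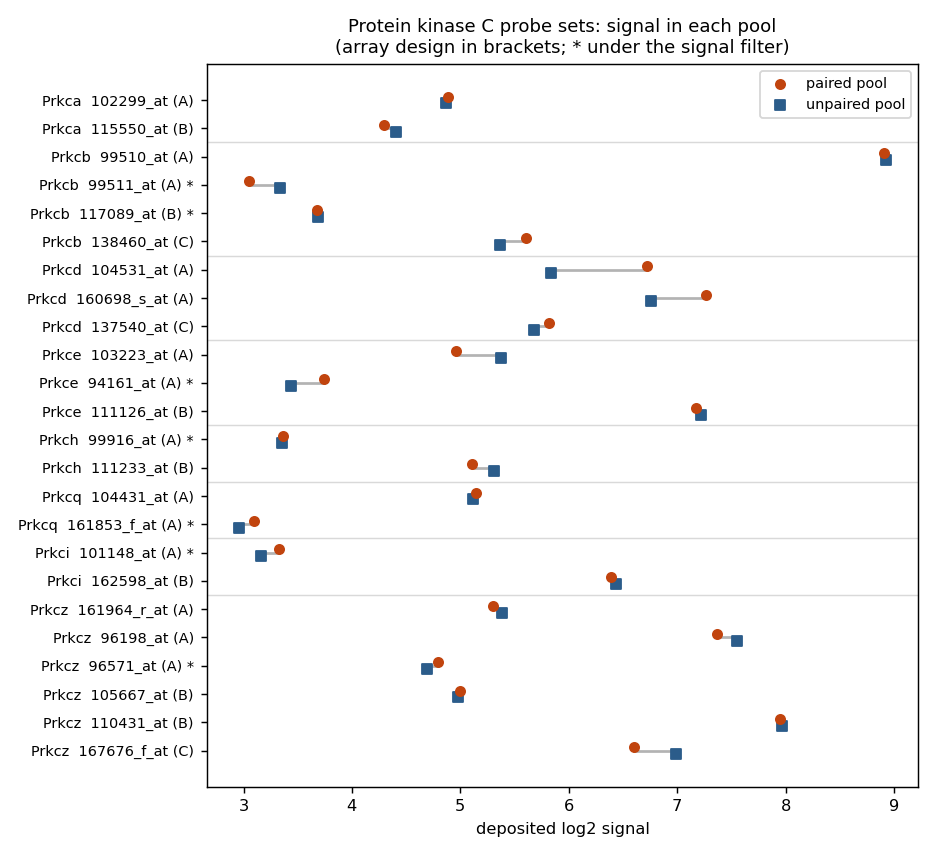
Deposited log2 signal (horizontal axis) of each of the 24 protein kinase C probe sets in the paired pool (circles) and the unpaired pool (squares), with the array design in brackets and an asterisk on the 7 under the signal filter. The 2 Prkcd probe sets of design A have the widest gaps, with the paired pool at 6.72 and 7.27 and the unpaired pool at 5.84 and 6.76.

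Prkcd encodes the delta isoform, which in mouse forebrain marks a class of neurons in the central amygdala. Probe set 104531_at on design A had a log2 signal of 6.72 in the paired pool and 5.84 in the unpaired pool, a log2 ratio of 0.89 or 1.86-fold. Its signal lay at the 79.8th percentile of its design in the paired pool and at the 66.4th in the unpaired pool. Only 1 of the 6211 kept probe sets of design A had a larger log2 ratio. The second probe set of that design, 160698_s_at, had 7.27 in the paired pool and 6.76 in the unpaired pool, a log2 ratio of 0.52 or 1.44-fold, and 31 kept probe sets of the design lay above it. The suffix marks probes that other transcripts may share. Its rank was at the 86.6th percentile in the paired pool and the 80.0th in the unpaired pool.

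The third Prkcd probe set, 137540_at on design C, had 5.82 in the paired pool and 5.68 in the unpaired pool. Its log2 ratio of 0.14 exceeded that of 80.1% of the kept probe sets on the design, so it lay well inside their spread, whose SD was 0.19. Directions were thus alike on all 3 probe sets, while sizes were not. The mean log2 ratio of the gene was 0.52 with an SD of 0.38 over the probe sets, which reflects probes and arrays and not mice. It was 0.33 with the signal filter set at the 75th percentile, which removed 104531_at, and 0.14 from the probe set of highest rank within its design. By this mean Prkcd stood 41st from the top among 10581 genes. Among the 1034 genes with at least 3 kept probe sets, a cutoff chosen after the values were seen, no other gene had a mean as high and none as far below 0.

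**Figure D2:**
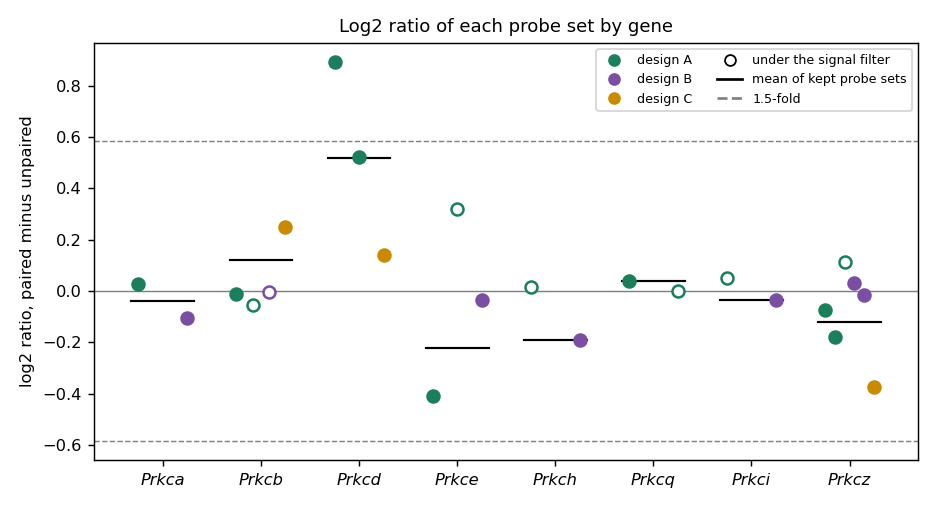
Log2 ratio, paired minus unpaired (vertical axis), of each probe set by gene, coloured by array design, with open circles for probe sets under the signal filter and bars for the mean of the kept ones. Prkcd lies above 0 on all 3 probe sets, at 0.89, 0.52 and 0.14, and only the first is past the dashed 1.5-fold line.

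Markers of other cells that a needle sample of the nuclei may hold were set beside the Prkcd difference. Among granule cell markers 6 of 7 kept genes were higher in the paired pool, with a median log2 ratio of 0.35. Gabra6, a GABA receptor subunit of these cells, had 0.89, the mean of 0.73 and, on a suffixed probe set, 1.04. Fat2 had 0.47, Cadps2 0.40, Zic1 0.35, Rbfox3 0.12, Cbln1 0.05 and Zic2 -0.02. The summed linear signal of the list was 846 in the paired and 731 in the unpaired pool on design A, 154 and 144 on design B, and 190 and 142 on design C. The granule cell markers Neurod1, Cbln3 and Pax6 were under the signal filter.

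Among Purkinje cell markers 5 of 6 kept genes were higher, with a median of 0.25. Shisa6, a receptor-associated protein gene, had 0.48 on a suffixed probe set. Car8, abundant in these cells, had 0.42, the mean of 0.24 and 0.61, and Ppp1r17, a phosphatase inhibitor gene, 0.41. Calb1 had 0.09 on its kept probe set and Pvalb a mean of -0.12. Pcp2 had 0.01 as the mean of 0.09 and -0.08 on its 2 probe sets, a sign that turned with the scaling. The summed signal of the list was 6798 in the paired and 7061 in the unpaired pool on design A, and 389 and 379 on design C. Most of both sums came from Pvalb, and without it, an alternative added after seeing the data, they were 888 in the paired and 836 in the unpaired pool on design A, and 82.8 and 58.3 on design C. Of the listed markers Pcp4 and Foxp2 were under the filter, and Itpr1 was not analysed here. In pooled tissue more cells of a type cannot be told apart from more RNA per cell.

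Oligodendrocyte markers were lower in the paired pool in 7 of 8 kept genes, with a median log2 ratio of -0.11. Their summed signal was 7651 in the paired and 8081 in the unpaired pool on design A, 1764 and 1917 on design B, and 122 and 175 on design C. Markers of inhibitory interneurons and nucleo-olivary neurons had 3 of 5 genes above 0 and a list median of 0.19, and their sums were 744 in the paired and 870 in the unpaired pool on design A, 41.6 and 30.8 on design B, and 221 and 194 on design C. Both lists therefore held genes or designs that went against their median. Medians were -0.10 for astrocytes and Bergmann glia, 0.05 for microglia and -0.05 for endothelial cells. The part of any of these markers in the Prkcd difference was not tested.

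Of the markers of the projection neurons of the nuclei, 8 had a kept probe set. Slc17a6, the vesicular glutamate transporter of these neurons, had log2 signals of 10.55 in the paired and 10.56 in the unpaired pool on its brightest probe set, a suffixed one. Another Slc17a6 probe set had 5.16 in the paired and 5.25 in the unpaired pool, and both were of design C. The Slc17a6 probe set on design B had 6.76 in the paired and 5.92 in the unpaired pool, a log2 ratio of 0.85. The probe sets of the gene thus did not give 1 difference, and its mean was 0.25. The neurofilament gene Nefh had 9.18 in the paired and 9.44 in the unpaired pool. The transcription factor genes Tbr1, Lhx9 and Meis2 of the same list were under the filter. Of 8 kept markers 3 were higher in the paired pool, and the median log2 ratio was -0.01.

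**Figure D3:**
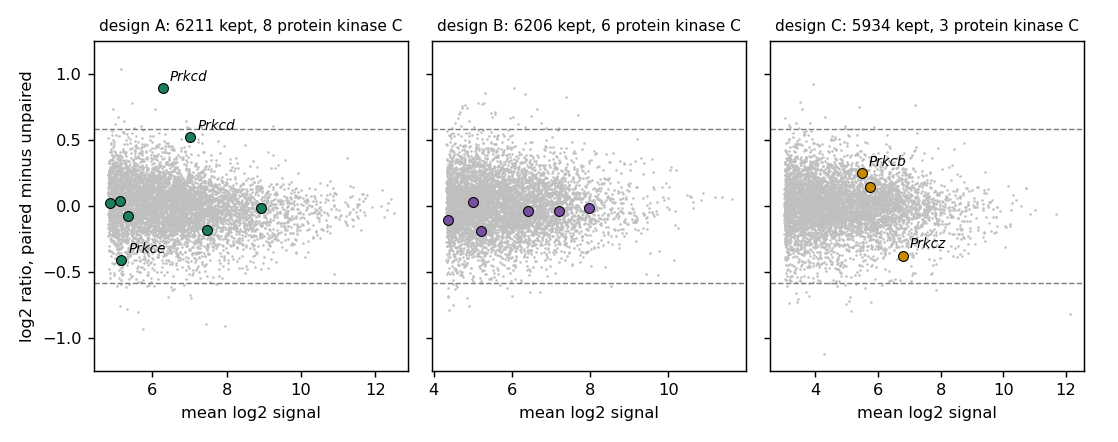
Log2 ratio, paired minus unpaired, against mean log2 signal for all kept probe sets of each array design (grey) with protein kinase C probe sets coloured and those more than 0.2 from 0 named. The 2 Prkcd probe sets of design A lie at the upper edge of the cloud, and the points of design B lie between -0.19 and 0.03.

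Of the other calcium-independent isoforms, Prkce and Prkch had kept probe sets lower in the paired pool, and that of Prkcq was 0.04 higher on the log2 scale, turning to -0.001 under loess scaling. Prkce, the epsilon isoform, is abundant in neurons and is tied to transmitter release and neurite growth. Its probe set 103223_at on design A had a log2 signal of 4.96 in the paired and 5.37 in the unpaired pool, a log2 ratio of -0.41. That was the lowest value among the members, and 2.46% of the kept probe sets of the design lay below it. Probe set 111126_at on design B, at the 93.6th percentile in the paired and the 94.0th in the unpaired pool, had 7.18 and 7.22, a log2 ratio of -0.04. Probe set 94161_at on design A was under the filter and went the other way, with 3.75 in the paired and 3.44 in the unpaired pool and a log2 ratio of 0.32. Prkce probe sets therefore did not give 1 direction, and the mean of -0.22 over the kept probe sets became -0.04 with 94161_at included.

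Prkch, the eta isoform, known from epithelia, had 1 kept probe set. On 111233_at of design B the log2 signal was 5.11 in the paired and 5.31 in the unpaired pool, a log2 ratio of -0.19. Its probe set on design A was dim, at 3.36 in both pools. Prkcq, the theta isoform, is best known for T cell receptor signalling. It had 5.15 in the paired and 5.12 in the unpaired pool on 104431_at, a log2 ratio of 0.04, and its second probe set on design A, 161853_f_at, was at the floor in both pools. Of the T lymphocyte markers with a probe set, Cd3e, Cd3d, Cd3g, Cd2 and Cd28 were under the filter in this tissue. Zap70 was above it on 2 suffixed probe sets only, and its unsuffixed probe set was under the floor in both pools.

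Log2 ratios of the 4 kept probe sets of the conventional isoforms ran from -0.10 to 0.25. Prkca, the alpha isoform, is required for cerebellar long-term depression in mouse Purkinje cells. Probe set 102299_at on design A had 4.88 in the paired and 4.87 in the unpaired pool, a log2 ratio of 0.03. Probe set 115550_at on design B had 4.30 in the paired and 4.41 in the unpaired pool, a log2 ratio of -0.10. Both lay near the middle of their designs, at the 50.8th and 49.6th percentiles in the paired pool and the 51.2nd and 51.7th in the unpaired pool.

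Prkcb, the beta isoform, yields splice forms that differ at the end of the protein. Of its 4 probe sets, 99510_at on design A was bright, with 8.91 in the paired and 8.93 in the unpaired pool, near the 96.5th percentile in the paired and the 96.4th in the unpaired pool. Its log2 ratio was -0.01. Another on the same design, 99511_at, was dim, with 3.05 in the paired pool, under the floor of 3.28, and 3.34 in the unpaired pool. The annotation used here does not say which transcript either reads, and signals of different probe sets do not compare as amounts. On design B 117089_at had 3.68 in the paired and 3.69 in the unpaired pool and was under the filter. On design C 138460_at had 5.60 in the paired and 5.36 in the unpaired pool, a log2 ratio of 0.25 that exceeded 91.7% of those kept there. The kept Prkcb probe sets thus spanned -0.01 to 0.25, and the gene mean was 0.12, or -0.01 from the probe set of highest rank.

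**Figure D4:**
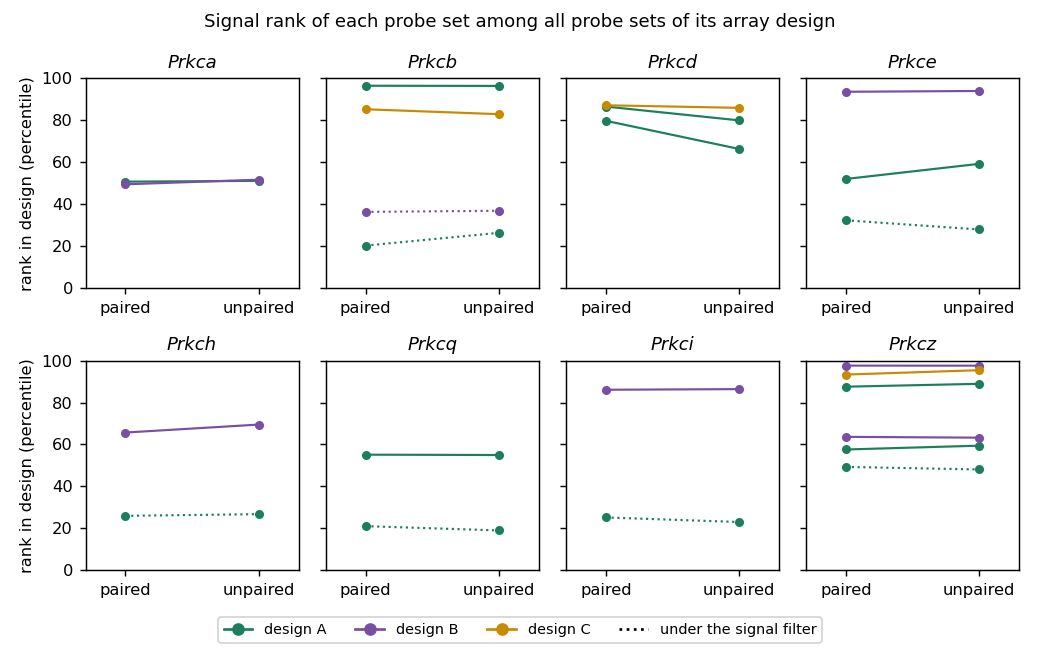
Percentile rank of each probe set's signal among all probe sets of its array design (vertical axis) in the paired pool (left) and the unpaired pool (right), 1 panel per gene, with dotted lines for probe sets under the signal filter. The steepest line is Prkcd 104531_at, at the 79.8th percentile in the paired and the 66.4th in the unpaired pool, while Prkca lies near the middle in both.

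The atypical isoforms had 6 kept probe sets, of which 1 was higher and 5 lower in the paired pool, 1 of the 5 (110431_at of Prkcz) turning above 0 under quantile scaling. Prkcz, the zeta isoform, also yields a shortened kinase in brain, PKMzeta, studied for its role in lasting synaptic potentiation, and the annotation does not separate it. The lowest of its 6 probe sets was 167676_f_at on design C, with 6.61 in the paired and 6.99 in the unpaired pool, a log2 ratio of -0.38, and 3.37% of the kept probe sets of the design lay below it. Its suffix marks probes that match a family of transcripts. On design A 96198_at had 7.37 in the paired and 7.56 in the unpaired pool, a log2 ratio of -0.18. The suffixed 161964_r_at had 5.30 in the paired and 5.38 in the unpaired pool, a log2 ratio of -0.07.

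Design B gave little difference for Prkcz. The brightest of its probe sets by rank, 110431_at, had 7.95 in the paired and 7.97 in the unpaired pool, at the 97.6th percentile in both, with a log2 ratio of -0.02. Probe set 105667_at had 5.0 in the paired and 4.98 in the unpaired pool, a log2 ratio of 0.03. The probe set under the filter, 96571_at on design A, had 4.79 in the paired and 4.69 in the unpaired pool, a log2 ratio of 0.11. The gene mean over 5 kept probe sets was -0.12 with an SD of 0.16, so that the spread over probe sets was larger than the mean, which was -0.02 from the probe set of highest rank. Prkci, the iota isoform that is also called lambda in mouse, had 6.39 in the paired and 6.43 in the unpaired pool on 162598_at of design B, a log2 ratio of -0.03. Its probe set on design A, 101148_at, had 3.32 in the paired pool and 3.16, under the floor, in the unpaired pool.

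Across the family, 7 of the 17 kept probe sets were higher and 10 lower in the paired pool, against 9175 of 18351 higher among all kept probe sets. The median log2 ratio was -0.02, beside 0.00 over all kept probe sets. Without Prkcd, 4 of 14 were higher, and their log2 ratios ran from -0.41 to 0.25 with an SD of 0.17, beside an SD of 0.19 over all. The signs of 4 kept probe sets, 1 each of Prkca, Prkcb, Prkcq and Prkcz, turned under another scaling. Those 4 log2 ratios lay between -0.02 and 0.04 in the values given above. Of the 5 genes with several kept probe sets, Prkcd and Prkce had them all in 1 direction, and the other 3 had both directions. Over all pairs of kept probe sets of a gene, 10 of 16 pointed the same way, and 10 of the 16 pairs were of Prkcz.

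Genes that act around protein kinase C were taken as 6 lists of 92 genes, of which 64 had a kept probe set. No gene of these lists had a mean past 1.5-fold, against 0.387% of all 10581 genes, and 30 were higher and 34 lower in the paired pool, where 49.0% of all genes were higher.

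Upstream, 5 of 11 genes for receptors, G proteins and phospholipase C were higher, with a median log2 ratio of -0.02, beside -0.004 over all genes. Plcb4, a phospholipase C that acts downstream of metabotropic glutamate receptors in the cerebellum, had 7.79 in the paired and 7.56 in the unpaired pool, a log2 ratio of 0.24. Chrm3, a muscarinic receptor gene, had 0.17. At the low end, Adra1b, an alpha-1 adrenergic receptor gene, had 5.24 in the paired and 5.63 in the unpaired pool. That was a log2 ratio of -0.38, on a suffixed probe set of design B. The Adra1b probe set of design A, under the filter, went the other way. It had 4.84 in the paired and 4.61 in the unpaired pool, a log2 ratio of 0.23. Plcd4, a calcium-sensitive phospholipase C, had -0.27, also on a suffixed probe set.

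Of the genes for diacylglycerol turnover and store calcium release, 8 of 11 had positive log2 ratios and the list's median was 0.06. Diacylglycerol kinases convert the messenger to phosphatidic acid and so end its signal. Of these, Dgkh had 4.97 in the paired and 4.53 in the unpaired pool, a log2 ratio of 0.45, and Dgkz had 7.47 and 7.23, a log2 ratio of 0.25. Plpp1, a lipid phosphatase, had -0.09 on its kept probe set, a suffixed one of design A. Its other probe set there, under the filter, went the other way, with a log2 ratio of 0.35. Itpr2, an inositol trisphosphate receptor, had a mean of -0.04. Its kept probe sets, suffixed ones of design A, had -0.14 and 0.07 and so did not give 1 direction. The means over kept probe sets of all 4 diacylglycerol kinases that had one were above 0 under each scaling tried. Dgkd had 0.23 and Dgke 0.06, and none of the 4 reached 1.5-fold. The kept Dgkd probe sets had 0.31 on a suffixed one of design B and 0.15 on design C. Probe sets under the filter went both ways. On design B a Dgkh probe set had -0.04 and a suffixed Dgkd probe set -0.18, the latter with the paired pool under the floor. Another of Dgkd was at the floor in both pools. Dgka, under the filter, had 0.19 on design A, with the unpaired pool under the floor, and 0.08 on design B.

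Kinases and phosphatases that prime or reset protein kinase C, with its anchors, had 4 of 11 genes above 0 and a list median of -0.03. Cavin2, which binds protein kinase C at caveolae, had a log2 ratio of 0.19 on its kept probe set, a suffixed one of design C. Its other probe set, a suffixed one of design A under the filter, went the other way, at -0.33. Mapkap1, a subunit of the mTOR complex that primes the enzyme, had 0.09, the mean of 0.19 and -0.003. Phlpp2, a phosphatase that removes a priming phosphate, had -0.22, and Cavin3, an anchor of the delta isoform, -0.18 on a suffixed probe set. Pdpk1, the kinase of the activation loop, had 0.05. The complex of the atypical isoforms had 5 of 10 genes higher and a median of 0.007, below 0 with no scaling (-0.003). Cdc42, the small GTPase that activates it, had 0.15 and Llgl2, a polarity protein gene, 0.10, against -0.24 for Mpp5, a scaffold also called Pals1, and -0.18 for Pard6g, an adaptor.

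Substrates were split, with 5 of 11 higher and a median of -0.13, which was 0.02 with no signal filter. Add3, an adducin of the actin and spectrin skeleton, had log2 ratios of 0.15, 0.49 and 0.45 on its 3 probe sets of design B, a mean of 0.36, and Gria2, an AMPA receptor subunit phosphorylated in long-term depression, had 0.15. Marcksl1 had -0.26 and Gap43, a growth cone protein, -0.25. Marcks, the main substrate used to follow the enzyme's activity, had 6.75 in the paired and 7.18 in the unpaired pool on design A, a log2 ratio of -0.42, and -0.02 on its kept probe set of design B.

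Other diacylglycerol receptors and related kinases had 3 of 10 genes above 0 and a list median of -0.03. Protein kinase D enzymes are phosphorylated by protein kinase C. Of these, Prkd2 had 5.10 in the paired and 4.86 in the unpaired pool on 1 probe set of design A, a log2 ratio of 0.25. A second probe set of that design had 6.72 and 6.47, a log2 ratio of 0.27, so both kept probe sets of Prkd2 gave nearly equal differences, under 1.5-fold. Prkd1 had a mean of -0.12 and Prkd3 was under the filter on all 3 of its probe sets. Chn2, a Rac-inactivating protein that binds diacylglycerol, had a mean of 0.16 over log2 ratios from -0.45 to 0.67, so its probe sets did not give 1 direction. The lowest means of the list were -0.16 for Rasgrp1, a Ras activator, and -0.12 for Prkd1. That of Rasgrp1 came from its only kept probe set, a suffixed one of design C. Rasgrp1 probe sets under the filter went the other way, at 0.17 on design A and 0.08 on design B, where the unpaired pool was under the floor. The Prkd1 probe set of design A, under the filter, was also above 0, at 0.08.

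**Figure D5:**
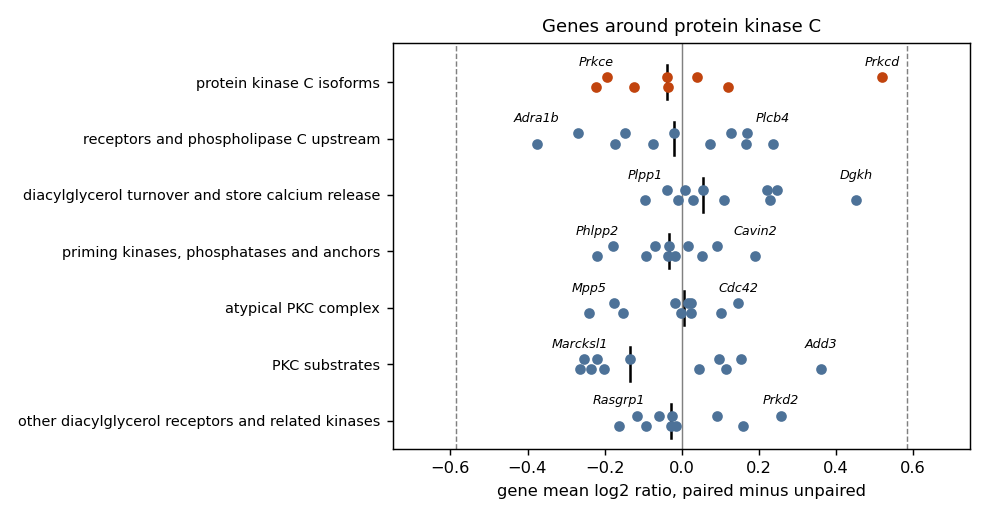
Gene mean log2 ratio, paired minus unpaired (horizontal axis), for the 8 protein kinase C genes and for the measured genes of 6 lists around them, with black bars at the medians and the lowest and highest gene of each row named. Prkcd at 0.52 lies farthest from 0, and every gene lies inside the dashed 1.5-fold lines.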

How the data were processed

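The authors deposited 1 value per probe set for each array, taken here as a log2 signal because the values without controls ran from 1.40 to 12.53. RNA was pooled and labelled with biotin, per the labels' protocols; how the authors summarized, background-corrected and normalized the arrays is not given in the sources used here. After 198 control probe sets were set aside, 36701 remained, of which 29137 had 1 gene symbol, 718 several and 6846 none; gene identifiers of 29050 of the 29137 were found in RefSeq's mouse table (GRCm38.p6) and their symbols brought up to date. Within a design the paired array was shifted by 0.010 (A), 0.008 (B) and 0.007 (C), so that the log2 ratios of probe sets no dimmer than the design's median centred on 0. Values under the 25th percentile were set to it, and probe sets with a mean at or above the median were kept (6211, 6206 and 5934). Ranks use the deposited signals. A gene's value is the mean over its kept probe sets.

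Neither pool had a second array on any design, so nothing could be tested across samples. The number of arrays limits the precision. The steps were tested on simulated data (Python 3.11.15, statsmodels 0.14.6 for loess, span 0.3). Members, lists and filters were chosen with earlier results of these data known. Of each pathway list the 2 highest and 2 lowest genes by mean log2 ratio are named, with the Prkd genes; Pdpk1, Dgkd, Dgke, Dgka and Marcks were named after their values were seen. With 2 pools no likeness of patterns between genes was computed. No coordinates are given, since no build is tied to the values.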

Additional observations from a re-analysis of the deposited data

How the results depend on the processing

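The values were recomputed without scaling, with quantile or loess scaling, without a floor or with one at the median, without a signal filter or with one at the 75th percentile, without suffixed probe sets, with the brightest probe set by rank per gene, and at 2-fold in place of 1.5-fold. Leaving out Prkcd, and Pvalb from the Purkinje cell sums, was chosen after seeing the data. Some alternatives could hardly change a value. A floor seldom reaches kept probe sets, and the filter and suffix settings do not alter the log2 ratio of a probe set that remains. Part of the following count was therefore fixed in advance. Of 237 values under an alternative, 229 stayed within 1 SD of the kept log2 ratios (0.19 for probe sets, 0.17 for genes) or, for counts, within 1.5 times. That tolerance is wider than most gene means, and within it 4 of 69 gene means turned sign: with the brightest probe set Prkca to 0.026 and Prkcb to -0.011, under loess scaling Prkcq to -0.001, and with no signal filter Prkci to 0.008. Within it the Prkcz mean was -0.016 with the brightest probe set and -0.19 with the filter at the 75th percentile, the Prkcb mean was 0.045 and the Prkch mean -0.088 with no signal filter. The count of members past 1.5-fold was 1, and 0 with the filter at the 75th percentile, at 2-fold and without Prkcd. The Prkcd mean was 0.33 with that filter and 0.14 with the brightest probe set. The Prkce mean was -0.041 with no signal filter and -0.035 with the stricter filter and with the brightest probe set; these settings use other probe sets of the gene. Prkcd 104531_at ranged from 0.88 to 0.90 and 160698_s_at from 0.51 to 0.55 over the settings that kept them. No paired analysis was possible because each group had 1 array per design. No replicate could be left out for the same reason, and no detection calls were used, so signal over background is unknown.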
